A study of Mus musculus with 6 samples.

Results

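The 182 genes described here are the nuclear protein-coding mouse genes of the cytosolic ribosome and of the respiratory chain, chosen by symbol: 90 ribosomal protein genes (Rpl and Rps, without the Rps6k kinases and Rps19bp) and 92 genes of complexes I, III, IV and V (Nduf, Uqcr, Cox4 to Cox8 and Atp5), out of 21887 nuclear protein-coding genes. They are called members below. Their AGO2 target peaks are those of the series' list of 2197 whose midpoint lay inside the gene span on mm10, which came to 34 peaks in 17 of the genes. The RNA came from cortex of mice at postnatal day 14 that carried a conditional Spy3-AGO2 allele, a peptide-tagged Argonaute 2 that is captured on SpyCatcher3 resin, switched on by VGLUT2-Cre. All 6 libraries share that genotype, age and tissue, and no untagged or Cre-negative group is among them. There were 2 AGO2-bound target libraries, 2 AGO2-bound miRNA libraries and 2 input libraries of whole lysate. The labels name pyramidal neurons as the cell type, and the tag was present only where the VGLUT2-Cre driver had recombined the allele.

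The target libraries entered as 1 peak list without heights, so a peak is present or absent, has no replicate value, and its depth is unknown. The deposited score was 0 for every peak. The 2 miRNA libraries held 66854 and 75658 counts. Of 10 markers of glutamatergic neurons 5 had a peak, led by Slc17a7 with 5 and Camk2a with 4, against 1 of 8 GABAergic neuron markers (Sst), 1 of 8 astrocyte markers (Slc1a2, 45 peaks), 3 of 8 oligodendrocyte lineage markers (among them Mbp with 2 and Cnp with 1), 1 of 8 microglia markers (Siglech) and 0 of 6 endothelial markers. Some peaks thus lay in genes typical of glia, and the part of other cells in the results below was not tested.

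Ribosomal protein mRNAs are among the most abundant in any cell, carry a pyrimidine tract at the 5′ end (the TOP motif) through which mTOR signalling controls their translation, and have compact genes with short untranslated regions. Their introns often hold small nucleolar RNAs (snoRNAs), which are cut out of the spliced intron. Box C/D snoRNAs, with symbols starting Snord, guide ribose methylation of ribosomal RNA, and box H/ACA snoRNAs, with symbols starting Snora, guide pseudouridylation. The respiratory chain is built from nuclear subunits imported into the mitochondrion and from a small set encoded by the mitochondrial genome. AGO2, loaded with a miRNA, binds mainly in 3′ untranslated regions, so abundant mRNAs with little such sequence serve as a check of how far a peak list follows abundance alone.

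Near the listed start sites, the longest run of C and T differed between ribosomal protein genes. To let the range be seen, the 20 bases before and the 10 bases from the RefSeq start site on GRCm38.p6 are printed for the 7 ribosomal protein genes with a peak whose promoter is listed, and for the respiratory gene with the most peaks, 5′ to 3′, with the longest unbroken run of C and T in capitals.
Rpl7a: ccacaaTTCCCTCTTCTTTCTTTCTCCagc
Rpl4: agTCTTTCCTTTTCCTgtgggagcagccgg
Rpl13: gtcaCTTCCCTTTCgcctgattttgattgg
Rpl13a: gataagaaaccctgcgacaagaCCTCCTCC
Rpl37: gaagtagTTTCCTgggcggaagcttatcca
Rps3a1: gaTTCTTaaagccggaagggcgaaagagca
Rps12: TTaaataccgtcatgcggccaccgccggcc
Atp5b: gaggaccgcttcggcgctcagTCTCCaccc
The windows are chr2:26910787-26910816 on the plus strand for Rpl7a, chr9:64173367-64173396 on the plus strand for Rpl4, chr8:123102330-123102359 on the plus strand for Rpl13, chr7:45128736-45128765 on the minus strand for Rpl13a, chr15:5116593-5116622 on the plus strand for Rpl37, chr3:86142659-86142688 on the minus strand for Rps3a1, chr10:23787200-23787229 on the minus strand for Rps12 and chr10:128083287-128083316 on the plus strand for Atp5b. Within the printed bases the longest run was 21 bases in Rpl7a, 14 in Rpl4, 10 in Rpl13 and 8 in Rpl13a. It was 6 in Rpl37, 5 in Rps3a1 and 2 in Rps12, against 5 in Atp5b. The runs of Rpl13a and Rps12 touch an end of the window and may be longer. The printed run crossed the listed start site in Rpl7a, began at base 3 in Rpl13a, and ended upstream of the listed start in the other 5 ribosomal protein genes. A C at the start site followed by 4 letters that were each C or T, read on the transcribed strand, was found in 15 of 81 listed promoters of ribosomal protein genes (18.5%, exact 95% interval 10.8 to 28.7), in 4 of 80 of respiratory chain genes (5%, 1.38 to 12.3) and in 2.21% of 21263 promoters of protein-coding genes. Of the 7 ribosomal promoters of genes with a peak 0 had it, which allows a share of up to 41%. A run of 8 C or T within 10 bases of the start, on the same strand, was found in 28.4%, 10% and 7.49% of them. The table lists promoters for 69 of the 90 ribosomal and 75 of the 92 respiratory genes, and listed start sites can be off by some bases or more. Those of Rpl7a and Rps12 lie inside the gene span, which begins at chr2:26910685 and, on the minus strand, at chr10:23787383. The short run in Rps12 therefore need not describe the start of its longest transcript. Both measures were chosen after a first look at the sequences.

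Every one of the 24 peaks in ribosomal protein genes lay on a small noncoding RNA gene in the same span. Those peaks fell in 11 genes, 7 of the large and 4 of the small subunit, and 23 of them lay on genes annotated as snoRNA and 1 on Snord73b, which the table files as snRNA. Outside small RNA genes 0 of 90 ribosomal protein genes had a peak, which with an exact 95% interval allows up to 4.02%. Over all nuclear protein-coding genes 4.3% had a peak outside small RNA genes, and over those no longer than the longest of the 182 genes 3.16% did. When peaks on small RNA genes were credited to their hosts, 11 of 90 ribosomal protein genes (12.2%, 6.26 to 20.8) had one, against 4.43% of all nuclear protein-coding genes. All 11 genes were among the 30 ribosomal protein genes with a snoRNA gene in the span, and the 60 without one had 0 peaks. That split restates that every peak lay on a small RNA gene and is no further result.

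**Figure D1:**
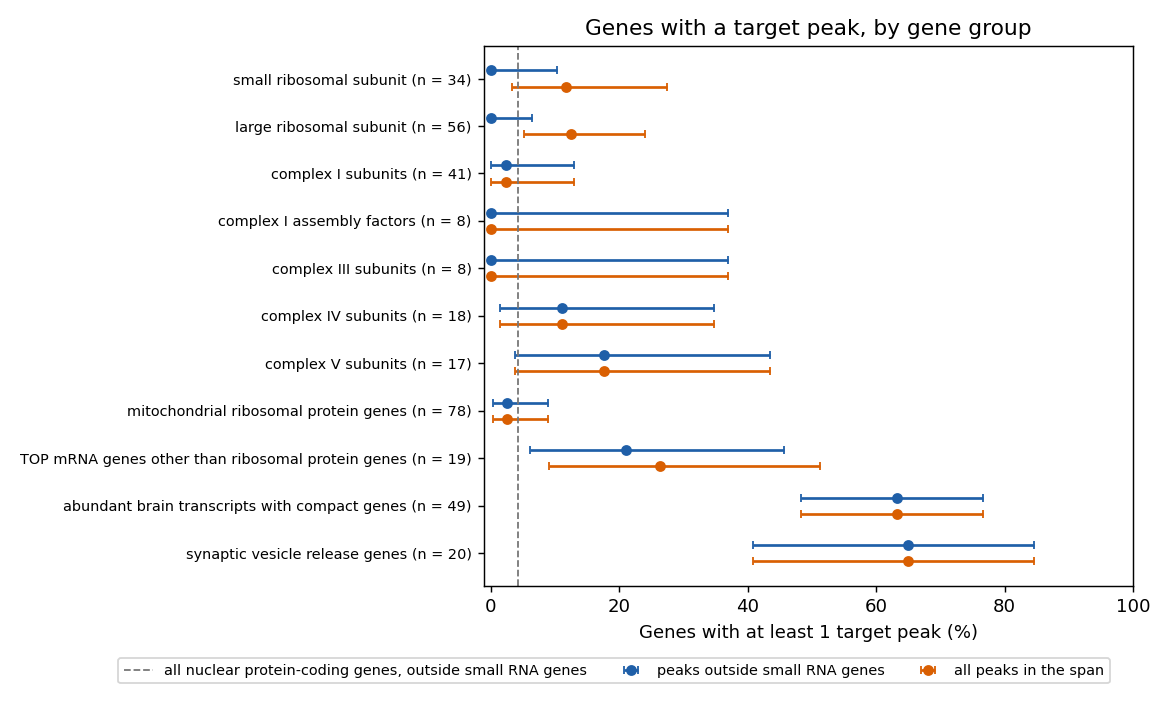
Share of genes with at least 1 target peak (horizontal axis, percent) in each gene group, with exact 95% intervals over genes as bars. Blue points leave out peaks on small RNA genes and orange points count them. Both ribosomal groups are at 0 in blue and above 11% in orange, while the other groups change little or not at all.

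The large subunit gene Rpl7a, on chr2:26910685-26913312, held 4 peaks, the most of any ribosomal protein gene. They were chr2:26911264-26911334, chr2:26912220-26912288, chr2:26912532-26912600 and chr2:26912850-26912915, all on the plus strand of the gene. Each sat on a separate snoRNA gene (Gm23969, LOC115489587, LOC115489586 and LOC115489588), so all 4 snoRNA genes of this host carried a peak. The upper ends of 3 of them matched the annotated end of the snoRNA gene to the base, and the lower ends began 2 or 3 bases inside it.

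Rpl13a, a large subunit protein also known for a role in translational control after interferon, has 4 snoRNA genes, of which Snord35a, Snord34 and Snord32a carried a peak. The peaks were chr7:45126352-45126433, chr7:45126604-45126669 and chr7:45127386-45127462, 82, 66 and 77 nt wide, all on the minus strand of the gene. Snord33, which lies between Snord34 and Snord32a and is 82 nt long, carried none. Rpl23a, whose protein sits beside the exit of the peptide tunnel, had a peak on each of its 3 snoRNA genes, Snord42a, Snord4a and Snord42b. Rpl17, which lines that tunnel, likewise had a peak on each of 3 (Snord58b, Gm23301 and Gm26202).

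Rpl4, another protein of the tunnel wall, showed the opposite balance. It has 5 snoRNA genes, and the peak chr9:64175050-64175115 on Gm23344 was the only one. Snord16a, Gm22571, Gm23136 and LOC115487261 in the same span, 71 to 99 nt long, had no peak. Rpl13 and Rpl37 each have 1 snoRNA gene and had 1 peak, on Snord68 and Snord72.

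Among small subunit genes, Rps12 had peaks on Snord100 and LOC115487513 and none on the box H/ACA gene Snora33, which lies between Snord100 and the end of the host gene. Rps3a1, a protein near the mRNA exit of the subunit, had one on Snord73a and one on Snord73b.

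The peaks followed the outlines of the annotated small RNA genes. Of the 25 peaks on small RNA genes (24 in ribosomal protein genes and 1 in Atp5b), 18 had both ends within 5 nt of the annotated ends, and 17 had the upper-coordinate end within 1 nt. The peaks covered 91.4% to 100% of the small RNA gene, with a median of 95.7%. The lower-coordinate end lay 1 to 4 nt inside the gene for 19 of the 25. Its median offset was 2 nt in the 11 plus-strand peaks and 3 nt in the 14 minus-strand peaks, so the trimmed side followed the coordinate and not the direction of transcription. Peaks that overran their gene by 9 nt or more were on genes annotated as 45 to 60 nt long, among them Snord68 (48 nt, 23 nt beyond the lower end), Snord42a (45 nt, 17 nt beyond the upper end), Snord72, Snord42b and Snord58b. Widths ran from 63 to 98 nt with a median of 67, against a median of 52 nt for all peaks outside small RNA genes.

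**Figure D2:**
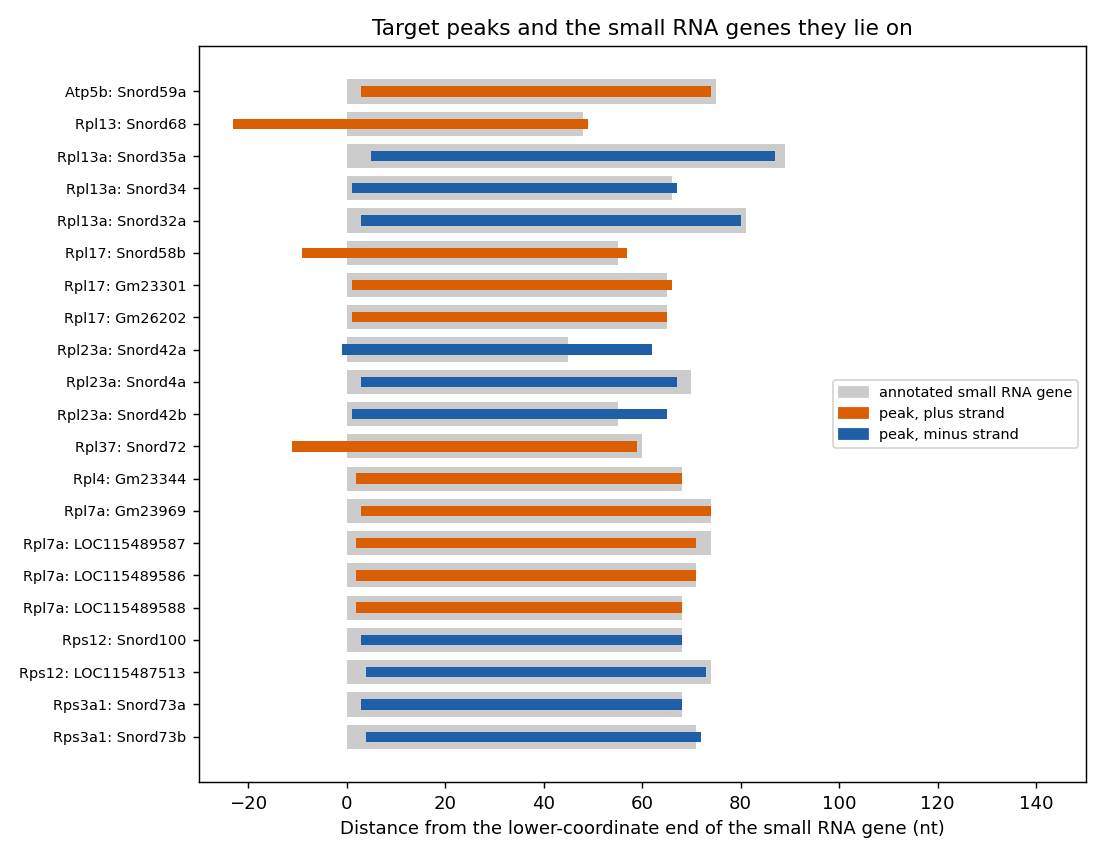
Each row is 1 peak in a ribosomal protein gene or Atp5b (thin bar, orange for the plus and blue for the minus strand) set on the annotated small RNA gene under it (grey), with distance in nt from the lower-coordinate end of that gene. Of the 25 peaks 21 are drawn; for 16 of these both ends fall within 5 nt, and the overruns of 9 nt or more belong to genes annotated as 60 nt or shorter.

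The snoRNA genes with a peak had a lower median length than those without. Of the 59 snoRNA genes inside ribosomal protein genes 23 had a peak (39%, exact interval 26.5 to 52.6), against 5.9% of all 1340 snoRNA genes of the table. The 59 lay in 30 hosts and the 23 in 11. Genes that share a host are not independent, so these intervals and those below may be too narrow. The 23 were 45 to 104 nt long with a median of 68, and the 36 without a peak were 48 to 203 nt with a median of 119. By symbol, 13 of 22 Snord genes and 0 of 12 Snora genes had a peak, and 10 of 25 with other names did. Among the Snora hosts without any peak were Rpl12, Rpl32, Rps2 and Rpl10. A count of 0 of 12 allows up to 26.5%.

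In all other protein-coding genes together 17 of 35 Snord genes (48.6%, 31.4 to 66) and 0 of 17 Snora genes had a peak, and the interval for Snord genes overlaps widely with that in ribosomal hosts (59.1%, 36.4 to 79.3). Among genes with other names the shares lay apart. They were 10 of 25 (40%, 21.1 to 61.3) in ribosomal hosts and 10 of 347 (2.88%, 1.39 to 5.24) in the other protein-coding genes. Those names do not tell the box type, and length was not matched between the hosts. Of snoRNA genes up to 104 nt under any name, 23 of 38 had a peak in ribosomal hosts (60.5%, 43.4 to 76). Elsewhere in protein-coding genes 25 of 90 did (27.8%, 18.9 to 38.2). Over that length 0 of 21 and 2 of 309 did. The cut was taken from the data as the length of the longest one with a peak in a ribosomal host. It therefore keeps all 23 there by construction, and the distance between these intervals is no independent support. The members held 24 of the 79 peaks on snoRNA genes (30.4%).

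**Figure D3:**
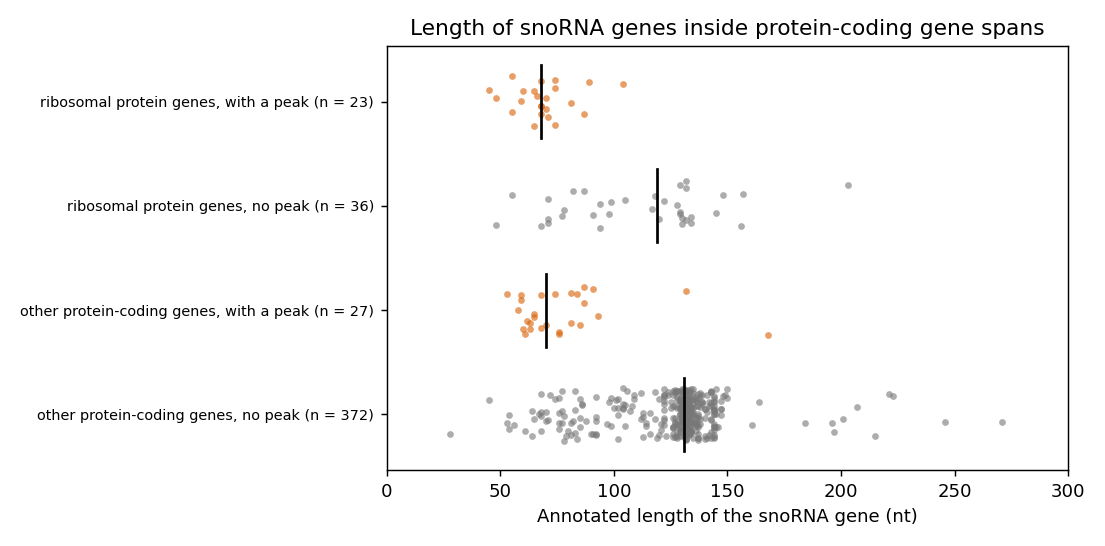
Annotated length in nt of snoRNA genes inside ribosomal protein genes and inside other protein-coding genes, split by whether a target peak lies on them; each point is 1 snoRNA gene and the black line is the median. In ribosomal hosts the medians are 68 nt with a peak and 119 nt without.

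The miRNA genes in the same spans gave few counts, as did most miRNAs. Of 6 hairpins, among them Mir677 in Atp5b, Mir6900 in Ndufa10, Mir3091 in Rps21, Mir5121 in Rpl13a and Mir7079 in Rpl13, 11 mature miRNAs were listed, and 10 of them had 0 counts in both miRNA libraries, as had 1424 of all 1978 listed miRNAs (72%). The exception was miR-6900-5p with 0 counts in replicate 1 and 1 in replicate 2. Counting error alone sets the limit for a miRNA at 0 to 0.00449% of the counts of the first library and 0.00397% of those of the second. The mature forms of Mir677, which lies among the Atp5b peaks described next, are printed from RefSeq with the seed (bases 2 to 8) in capitals.
miR-677-5p: uUCAGUGAugauuagcuucuga
miR-677-3p: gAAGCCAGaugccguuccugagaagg
Both had 0 counts in either library, and no peak lay on the hairpin.

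In the respiratory chain 10 peaks fell in 6 of 92 genes, and 9 of the 10 lay outside small RNA genes. The share of genes with such a peak was 6.52% (exact interval 2.43 to 13.7), which spans the 4.3% of all nuclear protein-coding genes. Complexes were assigned by symbol alone, which need not match membership, and paralogs and copies were counted in. On that grouping 1 of 41 complex I subunits, 0 of 8 complex I assembly factors and 0 of 8 complex III subunits had one. So had 2 of 18 complex IV subunits and 3 of 17 complex V subunits. Leaving out Cox7a2, whose peak lies upstream of its listed start site and inside Tmem30a, leaves 5 genes.

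Atp5b encodes the catalytic beta subunit of ATP synthase and held 5 peaks, the most of the 182 genes. Of these, chr10:128084145-128084215 lay on Snord59a, beginning 3 nt inside its lower end and stopping 1 nt short of its upper end. The other 4 were chr10:128084296-128084366 (71 nt wide), chr10:128084395-128084464 (70 nt), chr10:128085095-128085213 (119 nt) and chr10:128086353-128086418 (66 nt), all on the plus strand of the gene. All 5 sat between 12.3% and 43.5% of the way along the span, at least 4002 nt from its end. The pair nearest Snord59a lay 80 and 179 nt from it, the third 73 nt from Mir677, and the last 990 nt from Mir677. The gene table lists no small RNA gene under these 4, and 3 of them are as wide as the peaks on snoRNA genes (66 to 71 nt, against a median of 67). All peaks of the list ran from 15 to 407 nt, and which kind of RNA gave these 4 was not tested. Whether they lie in exons or introns was not determined, because no transcript models were used here.

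The remaining respiratory peaks were single. Ndufs7, a core iron-sulphur subunit of complex I, had a peak of 31 nt at chr10:80256762-80256792, 17 nt from the end of the span. Atp5mpl, a small membrane subunit of ATP synthase, had one of 117 nt at chr12:111961379-111961495, 63 nt from the end. Atp5a1, the alpha subunit that alternates with the beta subunit in the ATP synthase head, had one of 45 nt at chr18:77782447-77782491, 400 nt from the end. These 3 were the members' peaks in the last 10% of a span. The strand of Atp5mpl and Atp5a1 was not listed, so their end was taken from the strand of the peak. Cox6b1, a complex IV subunit on the intermembrane side, had one of 88 nt at chr7:30624527-30624614, 1543 nt downstream of the listed start site and 7600 nt from the end.

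The peak credited to Cox7a2, a small complex IV subunit, was chr9:79769234-79769279 (46 nt, minus strand). It lay 9404 nt upstream of the start site listed for the gene, in a long annotated extension of the span that overlaps Tmem30a, a lipid flippase subunit gene on the same strand, and 316 nt from the end of Tmem30a. A similar neighbour was found just outside the spans. The one further peak within 1000 bases of a member, chr8:83571714-83571810, had its midpoint 139 nt beyond Ndufb7 but on the opposite strand, 64 nt from the end of the enzyme gene Tecr. The members' own peaks nearest to a span end were those of Ndufs7 (17 nt inside) and Atp5mpl (63 nt).

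**Figure D4:**
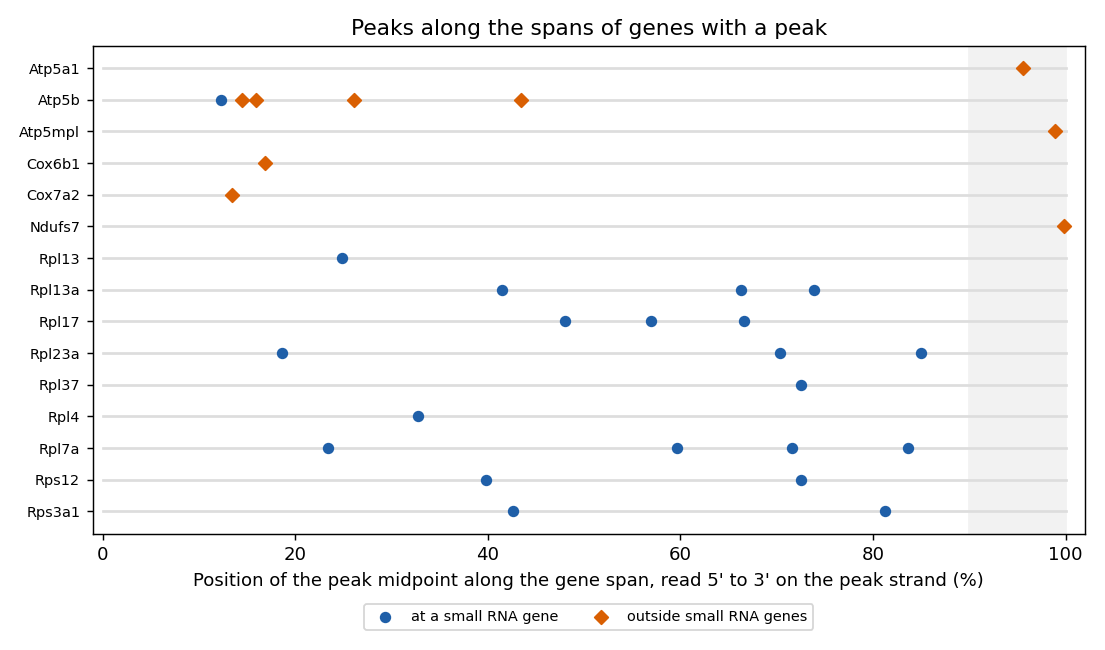
Position of each peak midpoint along the gene span in percent, read 5′ to 3′ on the strand of the peak, for 15 of the 17 genes with a peak; blue circles lie on a small RNA gene, orange diamonds do not, and the grey band is the last 10% of the span. Only Atp5a1, Atp5mpl and Ndufs7 have a peak in the band.

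The position of the peaks could be set against that of other genes only roughly. Outside small RNA genes 3 of 9 lay in the last 10% of the span (33.3%, exact interval 7.49 to 70.1), against 65.8% of 1724 pairings of a peak and a protein-coding gene. The interval includes that value, and Atp5b alone gave 4 of the 9. On small RNA genes 0 of 25 did, with a median position of 65.8% of the span. Strand was known for the hosts of 22 of the 34 peaks, and all 22 ran with the gene. Atp5mpl and Atp5a1 were among the hosts of unknown strand.

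Gene length bears on these counts. The median span was 3.17 kb for ribosomal and 7.11 kb for respiratory genes, against 17.2 kb for all nuclear protein-coding genes and 60.5 kb for those with a peak outside small RNA genes. The share with such a peak in genes other than the members was 0.61% for spans up to 2.5 kb and 13.8% over 100 kb. At the shares of their span classes, 1.64 of the 90 ribosomal and 2.29 of the 92 respiratory genes would have a peak, beside the 0 and 6 counted. The 6 include Cox7a2, whose peak lies inside Tmem30a, and peaks in overlapping spans were counted for the other genes too. In the class of 5 to 10 kb 5 of 35 respiratory genes had one, against 2.08% of other genes (1.58 to 2.67). That was the class with the highest respiratory count. At 10 to 20 kb 1 of 14 had one, and in the other classes 0 of 17, 0 of 14, 0 of 9 and 0 of 3. Whether respiratory genes differ from other genes of their length was not tested. The 0 of 90 ribosomal protein genes is not distinguishable from other genes of their span classes, since its interval reaches 4.02%.

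**Figure D5:**
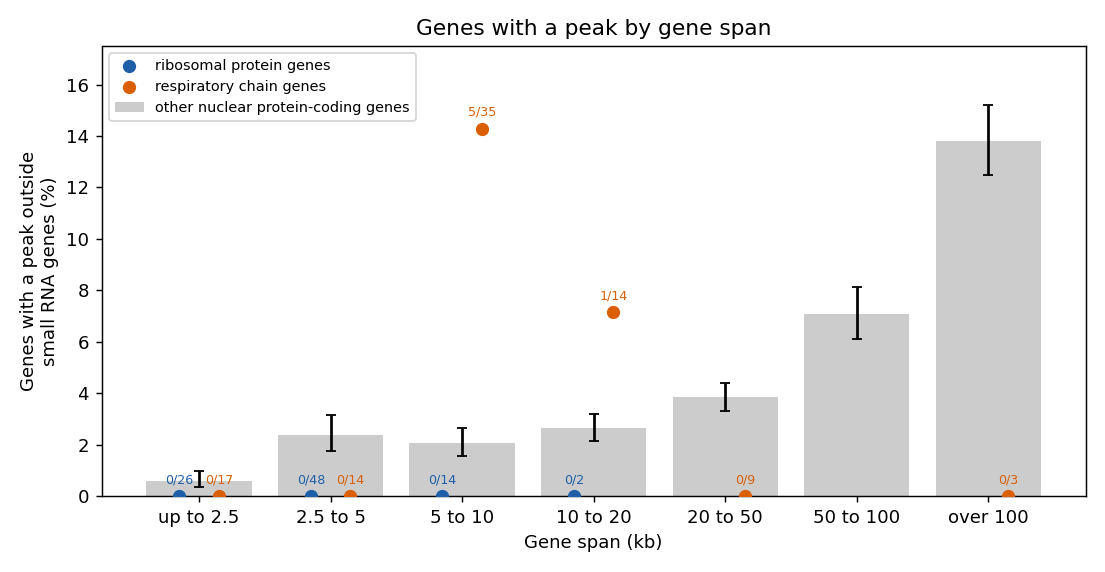
Share of genes with a peak outside small RNA genes (vertical axis, percent) by class of gene span in kb; grey bars are nuclear protein-coding genes other than the members with exact 95% intervals, and points with counts are ribosomal (blue) and respiratory (orange) genes. Ribosomal genes are at 0 in all 4 classes they occupy, and respiratory genes reach 5 of 35 at 5 to 10 kb.

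Other compact genes known for abundant transcripts carried peaks more often than not. From a list of 49 genes known for abundant transcripts in brain, 33 had a span of up to 10 kb (median 4.38 kb), and 21 of those had a peak outside small RNA genes (63.6%, exact interval 45.1 to 79.6). Of ribosomal protein genes up to 10 kb 0 of 88 did (upper limit 4.11%), of respiratory genes 5 of 66 (7.58%, 2.51 to 16.8), and of all other nuclear protein-coding genes up to 10 kb 1.6%. The actin gene Actb and the actin-binding Tmsb4x had 5 peaks each, the tubulin genes Tuba1a and Tubb2a 4 each, the membrane protein gene Marcks 4, and the ferritin gene Fth1 3. Gapdh, Actg1 and Ftl1 had 0. Over the whole list 31 of 49 genes had a peak (63.3%), among them the calmodulin gene Calm2 with 9, and Ywhaz and Snap25 with 8 each. The intervals for ribosomal protein genes and for these genes do not overlap. The list was chosen with earlier results of these data known, so that contrast is no independent support. Transcript levels were not measured here, and the list was written from general knowledge and holds neuronal genes, so abundance itself was not matched.

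Genes of the same pathways outside the symbol rule were counted in lists, to be read beside the 4.3% of all nuclear protein-coding genes. Of 19 TOP mRNA genes that encode no Rpl or Rps protein, 4 had a peak outside small RNA genes (21.1%, 6.05 to 45.6): the elongation factor genes Eef1a1 (3 peaks) and Eef2 (1), the poly(A)-binding protein gene Pabpc1 (1) and the initiation factor gene Eif3h (1). The ribosomal scaffold gene Rack1 had a peak on Snord95, and Eef2 had a further one on Snord37. Of 78 mitochondrial ribosomal protein genes 2 had a peak, Mrps25 and Mrpl49. The 6 respiratory genes outside the symbol rule (Sdha, Sdhb, Sdhc, Sdhd, Cyc1 and Cycs) had 0, as had the 18 genes of complex III and IV assembly, and of 17 tricarboxylic acid cycle enzymes Pdha1 and Idh3a had 1 each (11.8%, 1.46 to 36.4). Of 20 synaptic vesicle release genes 13 had a peak (65%, 40.8 to 84.6), but their median span was 60 kb, and 2 of the 20 were up to 10 kb, Vamp2 with 7 peaks being one of them.

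The subunits that the mitochondrial genome encodes for the same complexes had many peaks. Of 13 such genes 7 had a peak, 64 peaks in all (53.8%, 25.1 to 80.8). In complex I, ND1 and ND2 had 9 each, ND4 had 4, ND5 had 17 and ND6 had 7. That made a total of 46 in 5 of 7 genes, beside 1 peak in the 41 nuclear genes grouped by symbol as complex I subunits. CYTB, the mitochondrial subunit of complex III, had 8, beside 0 in the 8 nuclear ones. COX1 had 10 and COX2 and COX3 had 0, beside 2 in the 18 nuclear complex IV genes, among them the Cox7a2 peak inside Tmem30a. ATP6 and ATP8 had 0, whereas nuclear complex V genes held 7 peaks with the one on Snord59a. Per length, ND6 had 13.5 peaks per kb, ND1 9.4 and COX1 6.47. Of the 7 peaks in ND6, which is transcribed from the other strand than its neighbours, 5 were on the plus strand and so ran against the gene. The mitochondrial genome is transcribed as long joined RNAs, so counts of its genes are not independent.

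The gene table holds 343 pseudogenes whose symbols follow those of the members, and 0 peaks lay in them. All 10429 nuclear pseudogenes together held 12, so a 0 in 343 does not set these apart. Pseudogenes under other symbols were not identified.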

How the data were processed

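The study measured RNA bound to Spy3-AGO2 in mouse cortex. Per the labels' protocols, bound RNA was taken from the gel between 70 and 150 kDa and sequenced from 1 end over 100 bp. Among the tools in the submitters' processing notes are STAR 2.5.2a, cutadapt 2.10, UMI-tools, deepTools 3.1.3, DESeq2 1.36.0 and Bowtie2 2.4.2, with mm10 as the build and without roles. Peak caller, threshold and use of the input: not given in the sources used here. In the deposited peak list the score is 0 throughout, and position and strand were used. The deposited miRNA counts are whole numbers that the authors did not normalize.

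Genes came from a RefSeq table of spans on GRCm38.p6, the assembly of mm10; strand came from its promoter table, for genes listed there. A peak was credited to each gene whose span held its midpoint; peaks on small RNA genes (snoRNA, snRNA, miRNA, tRNA and similar) were counted apart. Shares have exact (Clopper-Pearson) 95% intervals, which cover counting error over genes only. With 1 peak list no test between groups was possible. The labels do not say that replicates came from separate animals. The members and lists were chosen with earlier results of these data known; all 177 entries of 12 companion lists matched the table, and mitochondrial ribosomal protein genes were added after seeing the data. Every member with a peak is named, and up to 4 genes per companion list, with others chosen after their values were seen; some genes that this covers are not reported here. Alternatives changed the rule of assignment, the part of the span, peak number and width, and the members. Peak assignment was tested on simulated peaks. Python 3.11.15, pandas 2.3.3 and scipy 1.17.1 were used.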

Additional observations from a re-analysis of the deposited data

How the results depend on the processing

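No alternative gave a ribosomal protein gene a peak except crediting peaks on small RNA genes to the host, which moved the count from 0 to 11 of 90 by construction. The 0 held with any overlap and with spans extended by 1000 bases, which could have added peaks. Whole peaks, a single gene span, the last 10% of the span, at least 2 peaks and peaks wider than 30 nt also gave 0. So did leaving out paralogs (0 of 77). Those settings only remove peaks or genes, so from 0 they could give nothing else. Respiratory chain genes with a peak stayed between 5 and 7 in 6 of the alternatives and at 6 of 73 without paralogs and assembly factors, and went from 6 to 3 with the last 10% of the span and to 1 (Atp5b) with at least 2 peaks per gene, as fewer peaks count. The share of all nuclear protein-coding genes with a peak went from 4.3% to 3.16% when genes longer than the longest member were left out. The 3 of 9 member peaks in the last 10% were also 3 of 9 in the last 20%, where all pairings went from 65.8% to 72.4%. The 25 peaks on small RNA genes were also 25 when most of the peak had to be covered by the small RNA gene. That comparison, those of hosted snoRNA genes, the count of mitochondrial ribosomal protein genes and both shares over all pairings were added after seeing the data. No paired analysis was possible because the target side is 1 peak list without values per library. The depth behind the peaks is unknown, so a gene without a peak may still be bound.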

Other observations

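Outside the ribosomal and respiratory genes, snoRNA genes with a peak lay in 21 other protein-coding genes. Hspa8, a heat shock cognate chaperone gene, had peaks on 3 (Snord14c, Snord14d and Snord14e). Nop56 and Nop58, whose proteins are themselves core components of box C/D particles, had peaks on 2 each (Snord110 and Snord57, and Snord11 and LOC115485825). The translation factor genes Eif4a2, Eif4g1 and Eif4g2 had 1 each. A further 28 snoRNA genes with a peak lay in no protein-coding gene span. Hspa8 also had 1 peak outside small RNA genes.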
